A study of Homo sapiens with 6 samples.

Results

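The 10 core glycolytic enzymes described here are the genes HK1, GPI, PFKL, ALDOA, TPI1, GAPDH, PGAM1, ENO1, PKM and LDHA, picked by gene symbol from the 19402 genes of the deposited count table; all 10 were present and counted deeply enough to be among the 13388 genes tested. Messenger RNA was captured on poly-T beads and sequenced; the cells were CFPAC1, an established line of human pancreatic ductal adenocarcinoma. Each of the 6 libraries came from a pool of clonal lines obtained by diluting cells infected with the lentiCRIPSv2 plasmid. In the 3 WT pools the labels name the plasmid with no guide, and in the 3 IRF1-KO pools the plasmid expressed wt Cas9 and a guide RNA directed at IRF1, the gene of an interferon-induced transcription factor. The labels name no other agent for these 6 pools, and the number of clones in a pool is not stated.

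Glycolysis turns glucose into pyruvate in the cytosol. The first enzymes trap, rearrange and phosphorylate the sugar at the cost of ATP, aldolase splits it into triose phosphates, and the later enzymes recover ATP and NADH. Lactate dehydrogenase then regenerates NAD+ by reducing pyruvate. Many tumour cells, pancreatic ductal carcinoma among them, keep these genes highly expressed, in part through the hypoxia-inducible factors (HIF), MYC and growth signalling.

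Total counts ranged from 16413682 to 28258075 per library. The IRF1 transcript itself was not lower in IRF1-KO (log2 fold change 0.51 ± 0.10, SE, adjusted p = 0.135; DESeq2 called it higher), so counts over all its exons do not check the knockout. The interferon-responsive genes PLAAT4 (log2 fold change −5.03, adjusted p = 0.00454) and UBA7 (−3.13, adjusted p = 0.00737) fell in IRF1-KO. Of 9 ductal epithelial markers 8 were tested. Their summed level ranged over 4438 to 7580 CPM among WT pools and over 5047 to 6957 CPM among IRF1-KO pools, CPM being counts rescaled to a common library size with TMM factors. The exception was CFTR, with 1 to 12 counts per library. The 6 leukocyte markers summed to 168 to 212 CPM in WT and 142 to 178 CPM in IRF1-KO, nearly all of it CD68 (126 to 184 CPM) and LYZ (13.4 to 75.0 CPM), whereas PTPRC and CD3E had at most 2 counts per library. The 6 fibroblast markers summed to 32.4 to 50.04 CPM in WT and 35.2 to 76.4 CPM in IRF1-KO, most of it COL1A1, and DCN had at most 2 counts per library. The 5 acinar markers summed to at most 0.488 CPM in any library. No marker passed the threshold. The median log2 fold change was −0.16 over 8 tested epithelial markers (2 positive; MUC1, of smallest p, at −1.22), −0.32 over 3 fibroblast markers (1 positive, COL1A1, of smallest p, at 0.67) and −0.06 over 3 leukocyte markers (1 positive; LYZ, of smallest p, at −1.09). The only tested muscle marker, MB, was at −0.41. The part of these cell types in the results was not tested.

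Of the 10 glycolytic members ALDOA had the largest difference, a level 1.75-fold higher in IRF1-KO, while the other 9 had log2 fold changes between −0.28 and 0.38. No member passed the threshold of 0.05 for the adjusted p (quasi-likelihood test of edgeR, adjusted over all tested genes by Benjamini-Hochberg), which 0.127% of all tested genes did, 0.0149% as higher and 0.112% as lower in IRF1-KO. At an unadjusted p of 0.05, 2 members were higher, ALDOA and PFKL, and none was lower, against 5.39% higher and 3.75% lower among all tested genes. The GC correction described below took PFKL from a log2 fold change of 0.38 to 0.12. DESeq2 called 1 member, ALDOA, as higher, where it called 1.49% of its 14317 genes higher and 0.915% lower. With limma-voom no member passed, and 0.0149% of all tested genes were higher and 0.12% lower. ALDOA and PFKL were also the members whose IRF1-KO libraries all lay above all WT libraries, as did 8.03% of all tested genes. No member had every IRF1-KO library below every WT library, as 6.75% of all tested genes did. The median log2 fold change was −0.07 over the 10 members and −0.02 over all tested genes. ALDOA was singled out with earlier results of these data known, so its distance from the other steps is a description.

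**Figure D1:**
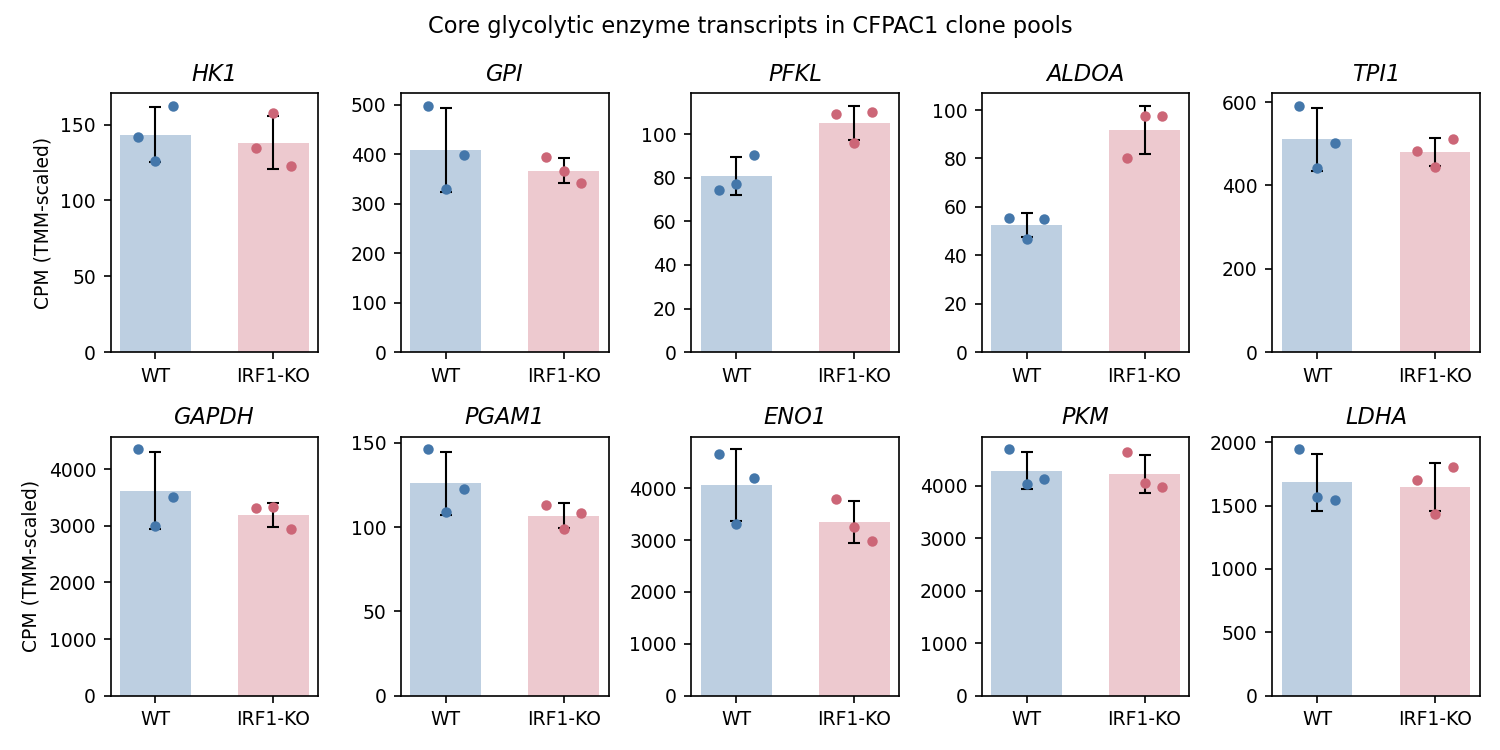
TMM-scaled CPM of the 10 members (vertical axes, each from 0) in WT and IRF1-KO; points are libraries, bars the mean and error bars the SD (n = 3). ALDOA (46.7 to 55.6 CPM in WT, 80.1 to 97.6 in IRF1-KO) and PFKL (74.4 to 90.6 against 96.0 to 110 CPM) have no overlap between groups, and the other 8 members overlap.

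The first steps prepare the sugar for cleavage. HK1, a hexokinase that phosphorylates glucose on entry (ENSG00000156515.23; GRCh38 chromosome 10, 69269984 to 69401884, plus strand), stood at 142, 126 and 162 CPM in the WT pools and at 135, 157 and 123 CPM in the IRF1-KO pools, given here and below in the order of replicates 1 to 3. The ranges overlapped, and the log2 fold change was −0.05 ± 0.14 (SE, adjusted p = 0.949). GPI, which isomerises glucose 6-phosphate to fructose 6-phosphate (ENSG00000105220.16; chromosome 19, 34359480 to 34402413, plus strand), stood at 498, 329.9 and 399 CPM across the WT pools and at 394, 365 and 343 CPM across the IRF1-KO pools. WT replicate 1 was the highest library and WT replicate 2 the lowest, so the WT pools enclosed all IRF1-KO pools (log2 fold change −0.16 ± 0.16, adjusted p = 0.843).

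PFKL encodes the liver-type subunit of phosphofructokinase, the ATP-consuming committed step. This gene (ENSG00000141959.17; chromosome 21, 44300051 to 44327376, plus strand) stood at 74.4, 77.0 and 90.6 CPM across the WT pools and at 109, 96.0 and 110 CPM across the IRF1-KO pools. Every IRF1-KO library was above every WT library, by a margin that was small between WT replicate 3 and IRF1-KO replicate 2. The group means were 80.7 ± 8.69 and 105 ± 7.87 CPM (SD, n = 3 each), with a log2 fold change of 0.38 ± 0.12 (SE) that did not pass the threshold (adjusted p = 0.349). With GC content corrected it was 0.12 ± 0.15 (adjusted p = 0.901).

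ALDOA encodes aldolase A, which cleaves fructose 1,6-bisphosphate into the triose phosphates. The gene (ENSG00000149925.19; chromosome 16, 30064164 to 30070457, plus strand) had 1016, 858 and 1140 counts in WT replicates 1 to 3 and 1314, 2791 and 2605 counts in IRF1-KO replicates 1 to 3. Scaled to library size, WT stood at 55.6, 46.7 and 54.8 CPM, and IRF1-KO at 80.1, 97.4 and 97.6 CPM. All IRF1-KO libraries lay above all WT libraries, and IRF1-KO replicate 1 was the lowest of its group. The WT mean was 52.4 ± 4.94 CPM and the IRF1-KO mean 91.7 ± 10.0 CPM (SD, 3 pools per group). The log2 fold change was 0.81 ± 0.13 (SE), and only 42 of 13388 tested genes had a smaller p, yet the difference missed the threshold with edgeR (adjusted p = 0.0874). With DESeq2 it passed, at a log2 fold change of 0.81 and an adjusted p of 3.34e-05, and over the 16 alternatives the adjusted p ranged from 3.34e-05 to 0.412 with the direction kept in all 16.

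What the ALDOA counts measure is narrower than the gene. A second protein-coding gene, ENSG00000285043, runs over ALDOA on the same strand, and 1657 of the 3916 ALDOA exon bases in the table (42.3%) are also exon bases of that gene. Of the 1350 ALDOA coding bases annotated in GENCODE 29, 1266 (93.8%) lie in the shared part. Of the 2259 bases that are ALDOA's alone, 1482 (65.6%) are introns of 1 coding transcript, ENST00000395240.7, and 151 are its exon bases. The introns are annotated as exon because other ALDOA transcripts retain or extend into them. Over all protein-coding ALDOA transcripts of GENCODE 29, 829 of the 2259 bases lie in exons. The other 1430 (63.3%) lie only in retained-intron or processed transcripts. The longest stretch not shared, 984 bases from 30067662 to 30068645, is exactly 1 intron of ENST00000395240.7. The sequences over its borders (GRCh38, plus strand) are shown because they mark where bases owned by both genes give way to bases owned by ALDOA alone. Capitals are shared coding exon and lower case is unshared intron, 30 bases on each side, at chr16:30067632-30067691 and chr16:30068616-30068675.
5′ border: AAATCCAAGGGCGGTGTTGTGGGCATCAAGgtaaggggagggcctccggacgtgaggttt
3′ border: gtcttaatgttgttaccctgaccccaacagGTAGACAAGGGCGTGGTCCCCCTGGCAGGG

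**Figure D2:**
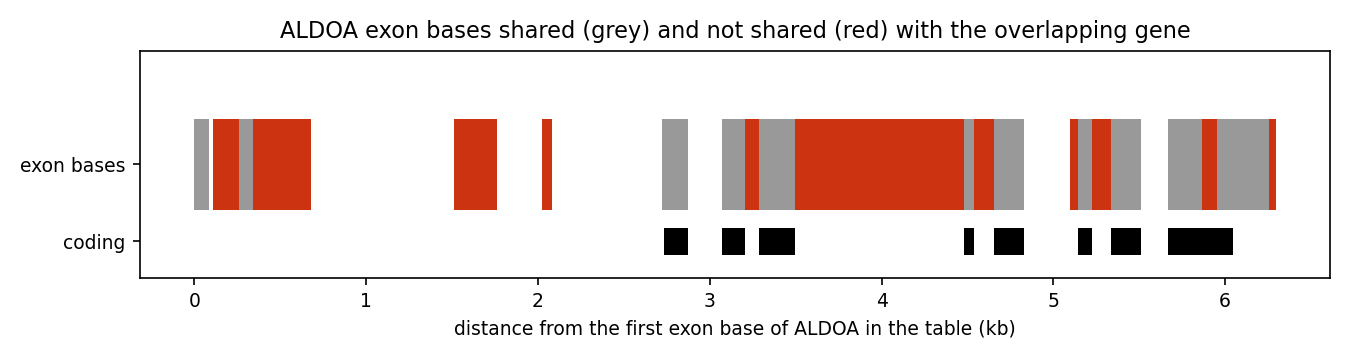
Exon bases of ALDOA in the deposited table against distance from its first exon base (kb, horizontal axis); grey bases are shared with the overlapping gene, red bases are not, and black marks bases that code for protein in any ALDOA transcript of GENCODE 29. Nearly all coding bases (1266 of 1350) are grey, and the widest red block is the 984-base intron.

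Genes that lie wholly in shared bases were nearly all at 0 in the table. Of 26 genes whose exon bases were all shared with genes on the same strand, 25 were at 0 in every library and the other summed to 8 counts over the 6 libraries. For 16 of these 26 an overlapping gene had at least 1000 counts in all, and 15 of the 16 were at 0. Of 17 genes shared throughout with genes on the opposite strand, 15 were at 0 and the highest total was 16 counts. Among 15318 genes with no shared base, 1928 were at 0 and the median total was 1011 counts. ENSG00000285043 had 20, 10 and 27 counts in WT and 22, 48 and 45 counts in IRF1-KO (log2 fold change 0.68 ± 0.40, SE, adjusted p = 0.692). How many ALDOA reads fell in shared bases and went uncounted was not tested, and the ALDOA values are uncertain to that extent, as is any reading of them as the level of the coding messenger RNA. Adding the 2 genes' counts left the log2 fold change at 0.81 (adjusted p = 0.0937).

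The triose phosphates then pass through TPI1, GAPDH and PGAM1. TPI1, which interconverts the products of aldolase (ENSG00000111669.15; chromosome 12, 6867119 to 6870948, plus strand), stood at 591, 441 and 502 CPM across the WT pools and at 484, 445 and 512 CPM across the IRF1-KO pools (log2 fold change −0.09 ± 0.13, SE, adjusted p = 0.900). All IRF1-KO libraries lay within the WT range. Only 14 of its exon bases are shared with another gene, SPSB2 on the opposite strand.

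GAPDH, which oxidises glyceraldehyde 3-phosphate and yields NADH (ENSG00000111640.15; chromosome 12, 6534512 to 6538374, plus strand), stood at 4348, 2996 and 3507 CPM across the WT pools and at 3308, 3321 and 2946 CPM across the IRF1-KO pools. WT replicate 1 was the highest and the remaining 5 libraries intermixed (log2 fold change −0.18 ± 0.15, SE, adjusted p = 0.799; −0.0082 without WT replicate 1). PGAM1, the mutase that moves the phosphate of 3-phosphoglycerate (ENSG00000171314.9; chromosome 10, 97426191 to 97433444, plus strand), stood at 146, 109 and 123 CPM across the WT pools and at 113, 98.7 and 108 CPM across the IRF1-KO pools. Its means were 126 ± 18.7 and 107 ± 7.34 CPM (SD, n = 3 each; log2 fold change −0.24 ± 0.13, SE, adjusted p = 0.671), and IRF1-KO replicate 1 lay within the WT range. Without WT replicate 1 the log2 fold change of PGAM1 was −0.10.

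ENO1, PKM and LDHA carry the pathway to lactate. ENO1, the enolase that makes phosphoenolpyruvate (ENSG00000074800.15; chromosome 1, 8861000 to 8879250, minus strand), stood at 4668, 3311 and 4201 CPM across the WT pools and at 3797, 3258 and 2988 CPM across the IRF1-KO pools. This was the lowest fold change among the members, −0.28 ± 0.16 (SE, log2, adjusted p = 0.680), with IRF1-KO replicate 1 inside the WT range, and it was −0.15 without WT replicate 1. PKM, the pyruvate kinase that yields ATP (ENSG00000067225.18; chromosome 15, 72199029 to 72231822, minus strand), stood at 4698, 4036 and 4139 CPM across the WT pools and at 4646, 4056 and 3973 CPM across the IRF1-KO pools. The groups covered almost the same range (log2 fold change −0.02 ± 0.11, SE, adjusted p = 0.975). Counts per gene do not separate the M1 and M2 splice forms of PKM. LDHA, the lactate dehydrogenase A subunit (ENSG00000134333.14; chromosome 11, 18394560 to 18408425, plus strand), stood at 1945, 1571 and 1542 CPM across the WT pools and at 1705, 1433 and 1803 CPM across the IRF1-KO pools (log2 fold change −0.03 ± 0.14, SE, adjusted p = 0.969), again with overlapping groups. Several members have pseudogene copies, counted by name in GENCODE 29 as 62 for GAPDH, 13 for PGAM1, 6 for LDHA, 5 for PKM, 4 each for TPI1 and ENO1 and 2 for ALDOA, and reads shared with such copies could be lost or split.

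Levels can be set side by side only per length, here as CPM per kb of all exon bases of a gene, retained introns included. In WT, GAPDH was highest at 1509.5 ± 285 CPM per kb (SD, n = 3), followed by ENO1 at 769.6 ± 131, PKM at 501 ± 41.5, LDHA at 279 ± 37.2 and TPI1 at 189 ± 27.98. PGAM1 (49.6 ± 7.37) and GPI (38.3 ± 7.91) came next and overlapped in range, the only neighbours in the WT order to do so. HK1 (22.8 ± 2.91), ALDOA (13.4 ± 1.26) and PFKL (9.04 ± 0.973 CPM per kb) were lowest. By this measure the 5 highest were TPI1 and enzymes that act after it, and PGAM1 was the only later enzyme outside them. The gaps depend on annotated exon length, which ran from 2396 bases (GAPDH) to 10680 bases (GPI). In CPM not divided by length, the same 5 were highest in WT, but GPI at 409 CPM came close to TPI1 at 511 CPM. In IRF1-KO the order was the same save that ALDOA, at 23.4 ± 2.56 CPM per kb, stood level with HK1 at 21.95 ± 2.80, their ranges overlapping. Divided by its 2259 unshared bases alone, ALDOA came to 23.2 ± 2.19 CPM per kb (WT) and 40.6 ± 4.44 CPM per kb (IRF1-KO). GAPDH, which has no shared base, was 65.1-fold higher in WT. On the unshared length, chosen after the data were seen, the place of ALDOA moved up: its range overlapped that of HK1 in WT, and in IRF1-KO it lay above HK1 and overlapped both GPI and PGAM1. The unshared bases are mostly introns of ENST00000395240.7 (65.6%). Neither length therefore gives the level of ALDOA messenger RNA or its place among the members. Together the 10 members made up 1.30% to 1.72% of scaled counts in WT and 1.30% to 1.48% in IRF1-KO, with ALDOA 0.324% to 0.372% of that sum in WT and 0.542% to 0.750% in IRF1-KO.

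The members other than ALDOA and PFKL were displaced in the same direction in some libraries. Relative to its own mean over the 6 libraries on the log2 CPM scale, each of those 8 was up in WT replicate 1, by 0.02 (HK1) to 0.37 (GPI). In the same library ALDOA deviated by −0.31 and PFKL by −0.30. In WT replicate 2 all 10 were below their means. The mean log2 CPM of the 9 members without ALDOA was 9.41 ± 0.17 in WT and 9.34 ± 0.06 in IRF1-KO (SD, n = 3 each), a difference of −0.07 that is smaller than the spread between WT pools.

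Measured against those 9 members in the same library, ALDOA stood at −3.77, −3.68 and −3.65 log2 units in WT replicates 1 to 3. In IRF1-KO replicates 1 to 3 it stood at −3.09, −2.69 and −2.70. The WT values lay close together, the IRF1-KO values were all higher, and replicate 1 was again nearest to WT. The group means were −3.70 ± 0.07 and −2.82 ± 0.23 (SD, n = 3 each), a difference of 0.87. Against GAPDH alone the difference was 0.97, and with GC content corrected as described below it was 0.77.

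**Figure D3:**
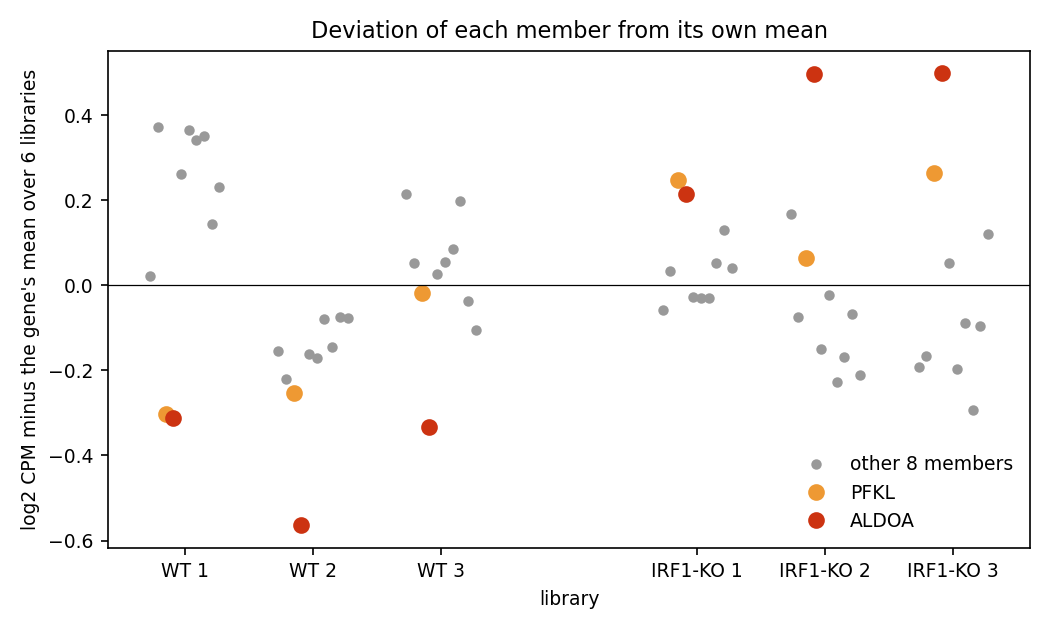
Log2 CPM of each member minus its mean over the 6 libraries (vertical axis), by library (horizontal axis); each point is 1 gene. ALDOA runs from −0.56 in WT replicate 2 to 0.50 in IRF1-KO replicates 2 and 3, whereas the 8 grey members stay between −0.29 and 0.37.

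GC content moved with group. Among all genes tested, the 477 with a transcript over 65% GC were shifted by a median of 0.52 on the log2 scale. ALDOA (60.8% GC in its longest coding transcript) and PFKL (63.5%) have the highest GC content of the 10 members, the others ranging from 44.0% (LDHA) to 58.9% (ENO1). The 749 tested genes within 1 percentage point of ALDOA's GC content had a median of 0.12 on the same scale, and in 18.7% of them every IRF1-KO library was above every WT library. By library, the median deviation of these 749 genes from their own means was −0.13, −0.02 and −0.03 in WT and 0.01, 0.19 and 0.01 in IRF1-KO, so WT replicate 1 and IRF1-KO replicate 2 stood apart from the other 4. For the 477 genes it was −0.59, −0.13 and −0.10 in WT and 0.10, 0.46 and 0.31 in IRF1-KO. With a correction that removes each library's trend with GC content, PFKL went from 0.38 to 0.12 ± 0.15 (SE, adjusted p = 0.901). ALDOA went from 0.81 to 0.69 ± 0.14 (adjusted p = 0.202). The unshared ALDOA bases alone are 56.4% GC and the shared bases 59.0%. Whether GC content has a part in the ALDOA and PFKL differences was not tested beyond these values.

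**Figure D4:**
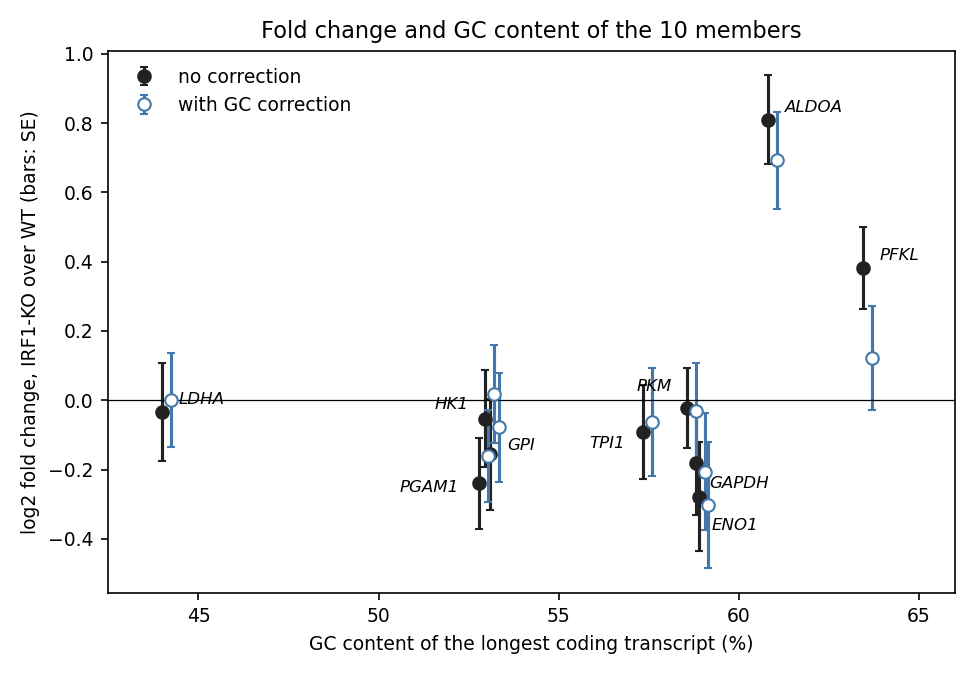
Log2 fold change of the 10 members (vertical axis, bars are SE) against GC content of the longest coding transcript (%, horizontal axis), without correction (black) and with it (open blue, drawn slightly to the right). PFKL goes from 0.38 to 0.12 and ALDOA from 0.81 to 0.69.

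At most steps another gene encodes the same activity. Of 18 further glycolytic genes, 11 were tested and none passed the threshold with edgeR, DESeq2 or limma-voom; PKLR, PGK2 and PGAM2 had no count in any library, and HK3 and PGAM4 had at most 3 counts per library. At an unadjusted p of 0.05, 1 of the 11 was lower, HK2, and none was higher, against 3.75% lower and 5.39% higher among all tested genes. The median log2 fold change of the 11 was −0.11. HK2, the inducible hexokinase, stood at 193, 183 and 165 CPM across the WT pools and at 142, 117 and 147 CPM across the IRF1-KO pools, every IRF1-KO library below every WT library (log2 fold change −0.41 ± 0.12, SE, adjusted p = 0.328). ENO2, the neuronal-type enolase, was likewise without overlap, with 78.3, 75.3 and 101 CPM across the WT pools and 67.5, 73.5 and 68.8 CPM across the IRF1-KO pools (−0.28 ± 0.14, adjusted p = 0.613). Of all tested genes 6.75% had every IRF1-KO library below every WT library.

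ALDOC, the aldolase that catalyses the same cleavage as ALDOA, stood at 30.5, 23.6 and 20.3 CPM across the WT pools and at 18.2, 22.9 and 21.6 CPM across the IRF1-KO pools. Its log2 fold change was −0.24 ± 0.18 (SE, adjusted p = 0.777), opposite in sign to that of ALDOA, with overlapping groups. Per length, ALDOA as counted made up 58.7% ± 4.94 of the 2 aldolases in WT and 74.5% ± 0.595 in IRF1-KO (SD, n = 3 each). Over its unshared bases alone the share was 71.0% ± 4.14 in WT and 83.5% ± 0.432 in IRF1-KO, again without overlap. Most of those bases (65.6%) are introns of ENST00000395240.7, whereas ALDOC has no shared base. Neither share therefore gives the part of each aldolase in messenger RNA. PGK1, the phosphoglycerate kinase between GAPDH and PGAM1, stood at 1918, 1358 and 1385 CPM across the WT pools and at 1335, 1249 and 1385 CPM across the IRF1-KO pools (−0.23 ± 0.15, adjusted p = 0.742).

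The member named at a step was not always the gene with the highest level. Shares here are of CPM per kb of all exon bases, so they depend on annotated lengths (LDHA 6038 bases, LDHB 2983). They do not give the part of each gene in messenger RNA. Per length, HK1 made up 23.1% ± 1.67 of the sum of HK1, HK2 and HKDC1 in WT (SD, n = 3), behind HKDC1 at 46.4% ± 6.18 and HK2 at 30.5% ± 5.53. In CPM not divided by length, HK1 was also lowest of these in WT (143, against 180 for HK2 and 196 for HKDC1). PFKL was 10.2% ± 1.02 of the phosphofructokinase sum in WT, against 82.0% ± 1.95 for the platelet-type PFKP and 7.78% ± 0.989 for the muscle-type PFKM. ENO1 was 97.3% ± 0.491 of the enolase sum and LDHA 55.8% ± 3.41 of the lactate dehydrogenase sum, with LDHB at 43.7% ± 3.36. In IRF1-KO these shares were 23.2% ± 1.52 for HK1, 12.5% ± 2.33 for PFKL, 97.3% ± 0.353 for ENO1 and 52.2% ± 1.36 for LDHA, all overlapping the WT range. HKDC1 (log2 fold change 0.11), PFKP (0.07), PFKM (−0.02), LDHB (0.18), LDHC (0.08), ENO3 (−0.11) and the sperm-type GAPDHS (−0.24) had SE from 0.11 to 0.32 and overlapping groups.

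**Figure D5:**
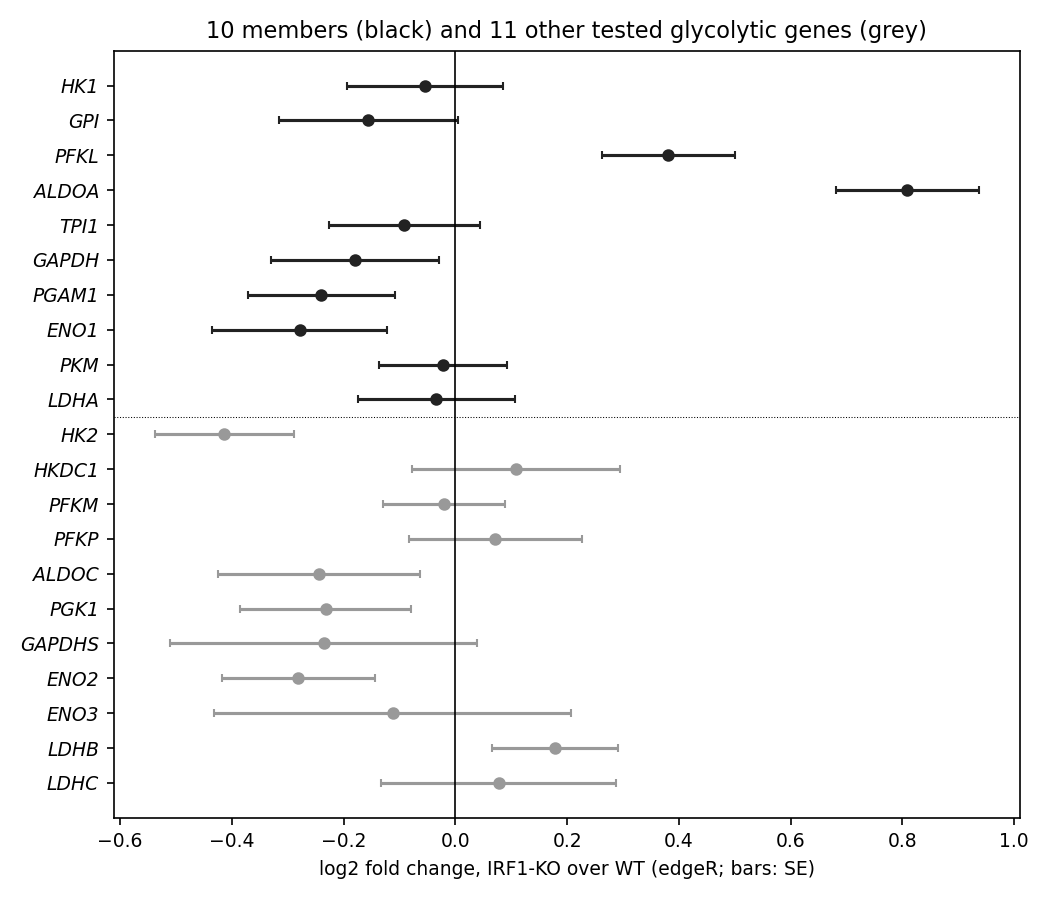
Log2 fold change of IRF1-KO over WT (horizontal axis, bars are SE) for the 10 members (black) and 11 other tested glycolytic genes (grey). ALDOA at 0.81 and PFKL at 0.38 are the highest, and HK2 at −0.41 is the lowest.

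Lists for the routes into and out of glycolysis had no gene past the threshold with edgeR, DESeq2 or limma-voom. The 6 tested genes of glucose and lactate transport had a median of 0.14 on the log2 fold change scale, and at an unadjusted p of 0.05 the test put 2 higher and 1 lower. Among all tested genes 5.39% were higher and 3.75% lower at that level. BSG, the chaperone of the lactate transporters, averaged 160 ± 42.1 CPM across WT and 248 ± 11.2 CPM across IRF1-KO pools (SD, 3 per group; log2 fold change 0.64 ± 0.18, SE, adjusted p = 0.303). Its transcript is 62.7% GC. Regulators of fructose 2,6-bisphosphate, the activator of phosphofructokinase, had a median of −0.23 over 5 genes, with 1 lower at an unadjusted p of 0.05, PFKFB2 (−0.30 ± 0.11, adjusted p = 0.480). Pyruvate entry to mitochondria had a median of −0.02 over 14 genes and 1 lower, PDK1, the kinase that inhibits pyruvate dehydrogenase (−0.49 ± 0.20, adjusted p = 0.523).

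Among branches, the median over 8 genes of the pentose phosphate route was −0.04, with 1 lower at an unadjusted p of 0.05, H6PD (−0.39 ± 0.17, adjusted p = 0.534). Of all tested genes 3.75% were lower and 5.39% higher at that level. Serine synthesis had a median of 0.04 over 5 genes with none at that level, the smallest p being that of PHGDH (−0.29 ± 0.25, adjusted p = 0.815). Glycogen genes had a median of −0.02 over 8 genes and 2 lower, PGM1, which links glycogen to glucose 6-phosphate (−0.37 ± 0.12, adjusted p = 0.368), and PYGL, the liver-type glycogen phosphorylase (−0.95 ± 0.31, adjusted p = 0.377). PYGL was spread over 74.7, 52.5 and 31.8 CPM among WT pools, the lowest just above the highest IRF1-KO pool at 31.5 CPM. HIF target genes outside glycolysis had a median of −0.33 over 20 genes, 17 of them negative, against 53.3% of all tested genes, and 4 lower at an unadjusted p of 0.05, against 3.75%, with NDRG1 at −0.67 ± 0.14 (adjusted p = 0.158). None of the 20 passed with edgeR or limma-voom, and DESeq2 called 1, NDRG1, as lower, as it did 0.915% of its genes.

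The 5 genes whose pattern over the 6 libraries was closest to that of ALDOA were WDR90, ARMC5, CTBP1, GAMT and APRT, by the root mean square difference of centred log2 CPM, from 0.0895 to 0.110 log2 units among 10995 genes with a mean of at least 5 CPM. They were picked on these same 6 libraries, so fold changes like that of ALDOA, and the p that go with them, are no separate result. Their log2 fold changes were 0.66 to 0.76 and their GC contents 59.6% to 65.04%. APRT, the adenine salvage enzyme, had the smallest adjusted p of these, 0.0663, its WT mean being 46.1 ± 3.22 and its IRF1-KO mean 77.9 ± 5.28 CPM (SD, 3 per group). PFKL was the member nearest to ALDOA, at a difference of 0.27, and the other 8 members lay between 0.45 (PKM) and 0.58 (ENO1).

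Promoter windows from RefSeq (GRCh38.p14) were found for all 10 members, 20 windows in all, and the 250 bases before each start were searched on both strands. A HIF core motif, ACGTG or GCGTG, was present in 11 of 20 windows (55.0%), against 43.2% of all 35116 windows. The 20 are not separate promoters: HK1 has the most windows, and some windows of HK1 and of ALDOA overlap each other. By gene, 8 of 10 members had at least 1 window with the motif. The share of all genes with such a window was not computed, so that count has no value to be set against. The IRF element, GAAA repeated after any 2 bases, was in none of the 20, against 3.02% of all windows, which says only that these letters are not in these windows. The windows of LDHA, 1 of its 2 windows, and GAPDH are printed because these are textbook hypoxia-regulated members and the printed windows hold the palindrome CACGTG, which both strands match, and that of ALDOA, 1 of its 3 windows, because it had the largest log2 fold change. Each is the part before the start that no exon of the table covers, 5′ to 3′ on the plus strand, with HIF core matches in capitals: LDHA at chr11:18394313-18394559, GAPDH at chr12:6535142-6535263 and ALDOA at chr16:30065510-30065672.
LDHA: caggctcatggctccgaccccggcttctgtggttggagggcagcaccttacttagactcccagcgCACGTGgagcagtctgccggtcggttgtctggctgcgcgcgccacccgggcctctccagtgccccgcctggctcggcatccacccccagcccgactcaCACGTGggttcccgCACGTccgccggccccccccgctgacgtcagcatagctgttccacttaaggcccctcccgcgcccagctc
GAPDH: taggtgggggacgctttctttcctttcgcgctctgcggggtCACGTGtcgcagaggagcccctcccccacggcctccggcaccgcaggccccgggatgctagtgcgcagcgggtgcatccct
ALDOA: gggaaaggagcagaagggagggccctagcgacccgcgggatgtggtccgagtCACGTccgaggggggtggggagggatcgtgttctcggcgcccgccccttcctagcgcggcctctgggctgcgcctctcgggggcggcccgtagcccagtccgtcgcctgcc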

How the data were processed

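The authors deposited 1 table of whole-number counts per gene for the 6 libraries, in the column layout of featureCounts per the file headers, with the exon length of each gene. Per the submitters' processing notes, featureCounts 0.6.1, edgeR 3.2.2 and the GRCh38 (hg38) build were used; the aligner, annotation release, strand and multi-mapping settings were not given in sources used here. Symbols for 19342 of 19402 identifiers were taken from current gene names, the rest from GENCODE 29 where it had one.

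Counts were fitted on the whole table in R 4.3.3 with edgeR 4.0.16 (filterByExpr, TMM, robust dispersion, quasi-likelihood F test), two-sided, with Benjamini-Hochberg adjustment over 13388 genes and a threshold of 0.05. SE are those implied by the F statistic. Log2 CPM used a prior count of 2. Alternatives used DESeq2 1.42.0, limma 3.58.1 (voom), other scaling and filters (at least 5 CPM in 3 libraries), leaving out each library, replicate number as a block, and a GC correction (natural spline with 5 degrees of freedom, as offset), alone and with the block. The code was tested on simulated counts with 50 genes changed at each size. It recovered 16% of them at 1.5-fold, 76% at 2-fold and 94% at 4-fold and at 8-fold, with 14 false calls in all. Chi-square values per degree of freedom within groups were 25.8 to 55.0, so no libraries are duplicates.

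Named were the 10 members, the tested isozymes, genes sharing exons with ALDOA, IRF1, for each other list up to 2 members past the threshold or, where none passed, that of smallest p, and the 5 genes nearest to ALDOA. PYGL was named after its values were seen. Some listed genes that were not tested are not reported here. Members and lists were chosen with earlier results of these data known. Labels do not say whether pools were grown separately, so the p-values cover only how these pools differ, which may be technical.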

Additional observations from a re-analysis of the deposited data

How the results depend on the processing

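Log2 fold changes were recomputed under 16 alternatives per member. ALDOA kept its direction in all 16, from 0.69 with the GC correction to 0.92 without IRF1-KO replicate 1; leaving out 1 library gave 0.73 to 0.92. It passed the threshold with DESeq2 alone (0.81), which made the count of members past it 1 in place of 0; without 1 library that count was 0 each time. The replicate block gave ALDOA 0.81 (adjusted p = 0.141) and changed no call of a member. Deviations from group means correlated across genes at −0.02, 0.25 and 0.06 for replicate numbers 1, 2 and 3. The pools numbered 2 were each other's best match, and so were WT replicate 3 and IRF1-KO replicate 1. So few pools cannot decide whether replicate numbers pair them. ALDOA relative to the other 9 members ranged from 0.77 to 1.01 over 13 alternatives, 0.81 to 1.01 when leaving out 1 library. PFKL, GAPDH, PGAM1 and ENO1 kept their direction in all 16. Without 1 library PFKL ranged from 0.34 to 0.49, GAPDH from −0.30 to −0.0082, PGAM1 from −0.33 to −0.10 and ENO1 from −0.41 to −0.15; the values nearest 0 of the last 3 were those without WT replicate 1. HK1 turned positive with the GC correction (0.0173; 0.0227 with the replicate block as well) and ranged from −0.16 to 0.0657 without 1 library. With upper-quartile factors PKM was at 0.0149 and LDHA at 0.00401. LDHA was also positive with the GC correction (0.000681; 0.00634 with the replicate block as well). Without 1 library, LDHA ranged from −0.10 to 0.10, PKM from −0.0746 to 0.0666, GPI from −0.29 to 0.0292 and TPI1 from −0.19 to 0.0452. These are changes of sign close to 0, at adjusted p of 0.856 and above. Over all genes, edgeR called 2 higher and 15 lower, DESeq2 213 and 131, the replicate block 4 and 27, no filter 5 and 26, and fits without 1 library between 0 and 55 higher and between 3 and 36 lower, the most without WT replicate 3. With 3 pools a group, 8 of the 9 other members had overlapping groups. Overlap was also usual among all tested genes. Their groups were apart in 8.03% with IRF1-KO higher and in 6.75% with IRF1-KO lower. The overlap therefore does not set these members apart.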

Other observations

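Among tested genes, 54 had at least 40% of their exon bases shared with another gene on the same strand, ALDOA included. Their median log2 fold change was −0.06, and in 14.8% of them every IRF1-KO library was above every WT library, against 8.03% of all tested genes. This set was formed after the overlap at ALDOA was seen and was not tested.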
